A study of Mus musculus with 9 samples.

Results

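RelA and RelB binding was examined around 8 genes of the colony-stimulating factor and interleukin-6 (IL-6) families: *Csf1*, *Csf2*, *Csf3*, *Il6*, *Lif*, *Il11*, *Clcf1* and *Osmr*, out of 37273 annotated genes, 22367 of them protein-coding. A peak was taken as belonging to a gene when its centre lay at most 50 kb from the gene's start site in the mm9 mouse genome. At 6 h of TNF treatment 58 peaks met this rule, and at 0 h none did. The 58 peaks merged into 29 sites, of 14781 sites in all, where a site is a stretch in which peaks of the 4 libraries at 6 h chain together by sharing at least 1 bp. Binding was measured by ChIP-seq in MEFs, mouse embryonic fibroblasts, of the genotype NfkB2-/-, which cannot make the NF-κB precursor p100, a protein that holds RelB dimers inactive and is cut to give p52. All groups carried this deletion, and no wild-type chromatin is analysed here, so the values describe p100-deficient cells. The groups were the p65 antibody (sc-372), which recognises RelA, and the RelB antibody (sc-226), each at 0 h and at 6 h of 10 ng/ml TNF, with 2 libraries per group. The methods describe the MEFs as immortalized by a 3T3 protocol, and peak lists hold no expression values with which to check the cell type. The labels do not say whether the 2 libraries of a group came from separate cultures, so p-values measure the spread between libraries, which may be technical.

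Colony-stimulating factors drive the growth and maturation of myeloid cells. *Csf1* encodes M-CSF, the growth factor of macrophages, *Csf2* encodes GM-CSF and *Csf3* encodes G-CSF. *Il6*, *Lif*, *Il11* and *Clcf1* encode cytokines that signal through gp130, the receptor chain encoded by *Il6st*, and *Osmr* encodes the oncostatin M receptor chain that pairs with gp130. Fibroblasts are a known source of several of these factors during inflammation. RelA and RelB bind DNA as dimers, often with p50 or p52, at sequences of the κB consensus and its relatives.

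The sequences below are the plus strand of mm9 at or beside the sites called in every library at 6 h, and at the 2 sites called in 3 libraries that carry a κB match within 100 bp of their centre. They are shown because these sites were the ones most often called near the 8 genes. The *Csf1* promoter window lies at the edge of its site, and its match is outside every peak. Of the 4 peaks joined in that site, the one of RelA replicate 2 alone reaches into the window. At *Csf1* 33.1 kb upstream and *Lif* 42.5 kb downstream the match lies inside the peaks of all 4 libraries. In each of the other windows the matches lie outside the peak of some library that called the site. At *Lif* 34.3 kb downstream both RelA peaks, listed with lengths of 30 and 31 bp, miss the matches. The *Il11* window lies wholly outside both RelB peaks, listed with lengths of 30 and 29 bp. These listed lengths are shorter than the windows in which the authors' peak caller counted reads. A match outside a listed peak, here or below, may thus still lie within the reads counted for it. Each window is 81 bases long and is centred on the κB match nearest the centre of the site. Capitals mark each match to the κB consensus that lies whole within the window, on either strand, overlapping matches included.
Csf1 promoter, chr3:107563496-107563576: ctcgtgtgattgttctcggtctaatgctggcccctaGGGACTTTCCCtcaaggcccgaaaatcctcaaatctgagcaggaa
Csf1 15.5 kb upstream, chr3:107578859-107578939: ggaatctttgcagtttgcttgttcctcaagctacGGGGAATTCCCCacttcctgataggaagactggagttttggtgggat
Csf1 33.1 kb upstream, chr3:107596414-107596494: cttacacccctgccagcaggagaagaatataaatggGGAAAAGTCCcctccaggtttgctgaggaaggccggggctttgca
Lif intron, 5.5 kb downstream, chr11:4162971-4163051: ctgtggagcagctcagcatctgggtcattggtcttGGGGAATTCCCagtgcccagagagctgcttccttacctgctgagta
Lif 34.3 kb downstream, chr11:4191762-4191842: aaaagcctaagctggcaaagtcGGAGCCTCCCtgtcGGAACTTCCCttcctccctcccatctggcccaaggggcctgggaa
Lif 42.5 kb downstream, chr11:4199969-4200049: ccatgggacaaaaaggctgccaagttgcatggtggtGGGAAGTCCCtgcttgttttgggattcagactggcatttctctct
Osmr 39951 bp upstream, chr15:6864292-6864372: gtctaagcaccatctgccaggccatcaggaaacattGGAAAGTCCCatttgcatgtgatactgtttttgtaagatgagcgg
Il11 43.4 kb downstream, chr7:4690943-4691023: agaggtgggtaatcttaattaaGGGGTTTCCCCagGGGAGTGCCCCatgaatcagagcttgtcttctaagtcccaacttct

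The window 15.5 kb upstream of *Csf1* and the window in the *Lif* intron both hold the palindrome GGGAATTCCC. Within 100 bp of the site centre this word was found at 0.792% of all 14781 sites, at 2.2% of the 1860 sites called in all 4 libraries, and in 0.0135% of windows of the same length placed 1000 bp to either side. Over the sites called in all 4 libraries, the median of the mean log2 fold over input was 3.13 with the word and 3.19 without it. The word was rare in the windows beside the sites, and the 2 medians are close.

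TNF was compared with no TNF first. The 0 h libraries held 182 and 194 peaks for RelA and 35 and 14 for RelB in the whole genome, and none of these lay within 50 kb of a start site of the 8 genes. Over all protein-coding genes, 1.16% had a peak at 0 h within this distance, and over all annotated genes 1.2%, so 0 of 8 does not set these genes apart. None of the 29 sites was overlapped by a 0 h peak, beside 0.413% of all sites. The 0 h peak closest to *Csf1* was 163.3 kb away. At 6 h the RelA libraries, with 7052 and 5688 peaks in all, had 14 and 13 peaks near the 8 genes. The RelB libraries, with 5192 and 6698 peaks in all, had 13 and 18. Reads within peaks at 6 h ran from 120352 to 162105 per library and did not separate the antibodies, since the lowest and the highest of these totals were both RelB libraries. Total reads per library are unknown. In these bulk samples, binding in fewer cells and weaker binding per cell cannot be told apart.

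**Figure D1:**
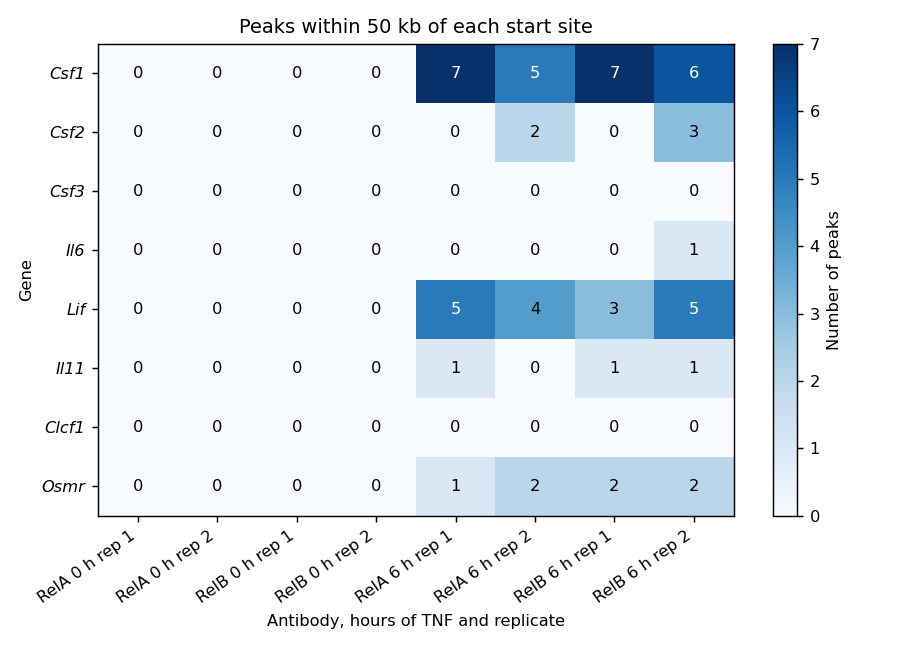
Number of peaks within 50 kb of the start site of each gene (rows) in each of the 8 libraries (columns), with the count printed in each cell and shaded by its size. The 4 columns at 0 h hold no peak, and at 6 h *Csf1* has 5 to 7 and *Lif* 3 to 5 in every library, while *Csf3* and *Clcf1* have none.

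The genes differed widely in how much binding they had at 6 h. *Csf1* had 7 and 5 RelA peaks and 7 and 6 RelB peaks. *Lif* had 5 and 4 for RelA and 3 and 5 for RelB. *Osmr* had 1 and 2 for RelA and 2 and 2 for RelB. These 3 genes carried the 6 sites called in all 4 libraries, 3 at *Csf1*, 2 at *Lif* and 1 at *Osmr*. Thus 3 of the 8 genes had such a site, beside 9.83% of protein-coding and 8.89% of all annotated genes. A peak of some kind at 6 h was found at 6 of the 8, beside 43.5% and 39.6%. At least as many sites in all 4 libraries as at *Csf1* were found at 51 protein-coding genes, or 0.228%, and at least as many as at *Lif* at 1.37%.

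Of the 29 sites, 6 were called in all 4 libraries (20.7%, against 12.6% of all sites), 4 in exactly 3 (13.8% against 8.16%), 3 in exactly 2 (10.3% against 11.3%) and 16 in a single library (55.2% against 67.9%). No site was called in both RelA libraries and in neither RelB library, and 1 site had the opposite pattern. The share of all sites with either pattern was not counted, so nothing is read from these 2 counts. The sites lay mostly far from start sites. The centres of 24 of the 29 were over 10 kb from every protein-coding start site, beside 71.4% of all sites, as were 5 of the 6 sites called in all 4 libraries, beside 71.8% of the 1860 such sites in the genome. The remaining one, at the *Csf1* start, lay within 1 kb, as 223 of the 1860 did. By the GENCODE annotation 22 of the 29 centres were intergenic, 6 intronic and 1 in a UTR. Some of the intronic centres lay in other annotated genes, *Gm12223* near *Csf2* and *Gm11959* near *Lif*. No share over all sites is given for these classes, so nothing is read from the counts. For 28 of the 29, the nearest protein-coding start site was that of the gene itself.

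**Figure D2:**
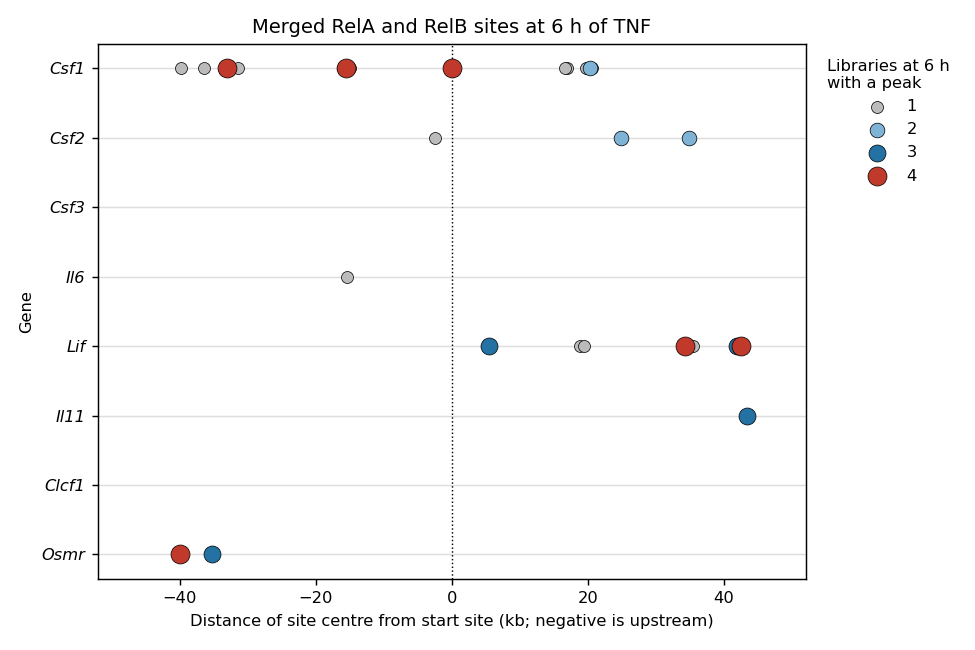
Distance in kb from the start site of each gene (negative is upstream) to the centre of each merged site at 6 h, with the size and colour of a point giving the number of libraries, of 4, with a peak. The red points, called in all 4 libraries, lie at *Csf1* 0.1, 15.5 and 33.1 kb from the start site, at *Lif* 34.3 and 42.5 kb downstream and at *Osmr* 39951 bp upstream.

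*Csf1* occupies chr3:107543966-107563387 on the minus strand, with no other protein-coding start site within 50 kb. The site at its start, 107563095 to 107563505, is centred 87 bp inside the gene in an annotated UTR. Here RelA had log2 folds over input of 4.40 and 4.57 and RelB had 2.94 and 3.21. Both RelA libraries were thus above both RelB libraries. The means were 4.49 ± 0.12 for RelA and 3.07 ± 0.19 for RelB (SD, n = 2). After each library was centred on its median, which shifts the difference between antibodies by 0.09 over all sites, RelA exceeded RelB by 1.50 on the log2 scale with a standard error of 0.27 and a 95% interval of 0.90 to 2.09 (limma, Benjamini-Hochberg adjusted p = 0.0345 over 1860 sites). RelA was higher in 2 of 2 libraries. The call covers 1 of the 6 sites near these genes, while 0.591% of the 1860 sites were called, 0.43% higher for RelA and 0.161% higher for RelB. Over all sites 8 were called higher for RelA and 3 for RelB, and without centring these numbers were 5 and 3. The lean toward RelA was not kept under all settings, with 67 and 74 on log2 reads of the fullest window, 41 and 44 under a block for replicate number and 16 and 24 without RelA replicate 1. Ordered from highest toward RelA, the difference at the *Csf1* start ranked 10 among all 1860.

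The reads behind this site show the same order. In the fullest window of the peak the RelA libraries had 33 reads (exact Poisson 95% interval 22.7 to 46.3) and 36 reads (25.2 to 49.8). The RelB libraries had 10 reads (4.8 to 18.4) and 13 reads (6.92 to 22.2). These intervals cover counting error only, and the reads are not adjusted for depth. The call rests on few RelB reads and on the choice of settings. RelB replicate 1 passed the peak threshold here with a false discovery rate (FDR) of 0.086, so the site was not among those called in all 4 libraries at an FDR under 0.01 and could not be tested there. The adjusted p (limma) was 0.0564 without centring, 0.469 without RelB replicate 1 and 0.431 without RelB replicate 2, in a range of 2.27e-07 to 0.469 over 8 alternatives in which the difference stayed between 1.39 and 1.61.

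Within the site itself no κB match lay within 100 bp of the centre. The nearest, printed above, is GGGACTTTCC at 107563532 to 107563541, centred 149 bp upstream of the start site. It falls between the end of the RelA peaks and a further peak that RelB replicate 1 had at 107563553 to 107563787 (log2 fold 2.14, 13 reads), which no other library called.

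By log2 fold, the strongest site near any of the 8 genes was 15513 bp upstream of *Csf1*, at 107578833 to 107578968, in intergenic sequence. The log2 fold was 4.64 and 5.21 with the RelA antibody and 4.32 and 4.46 with the RelB antibody. The RelA peaks held 30 and 52 ChIP reads beside 2 and 8 input reads. The RelB peaks held 34 and 32 beside 8 and 3. Other sites described below had more ChIP reads in some libraries. In the list of RelA replicate 2 this peak ranked 8 of 5688, and in the other 3 lists it ranked 45, 112 and 109. Its mean fold of 4.66 ranked 28 among the 1860 sites called in all 4 libraries. Both RelA values were above both RelB values, which was also so at 19.2% of all 1860 sites, and the difference of 0.62 (95% interval -0.03 to 1.27) did not pass the test (limma, adjusted p = 0.312). Peaks of all 4 libraries shared the 13 bp from 107578859 to 107578871. In all, 5 κB matches lay within 100 bp of the centre, 3 of them overlapping around the palindrome.

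The farthest *Csf1* site called in all 4 libraries lay 33069 bp upstream, at 107596315 to 107596597. The RelA folds were 3.79 and 3.38 from 67 and 47 ChIP reads. The RelB folds were 3.74 and 3.50 from 42 and 45 reads. The antibodies overlapped, and the difference was 0.05 (95% interval -0.57 to 0.67, limma adjusted p = 0.957). The 4 peaks shared 116 bp, and a κB match lay 2 bp from the centre.

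At the other end of the gene, just past its last exon, peaks clustered without joining. A site 20281 bp downstream of the start, 107542970 to 107543242, was called in both RelB libraries (log2 folds 3.18 and 3.10, with 15 and 14 reads) and in neither RelA library. It holds no κB match. RelB replicate 1 had 2 more peaks beside it, at 107542769 to 107542820 (2.50) and 107543637 to 107543702 (3.81), and RelA replicate 2 had one at 107543341 to 107543369 (2.62). Each of these 3 held a κB match within 100 bp of its centre. In all, 11 *Csf1* sites, these 3 included, had a peak in a single library, with 11 to 23 reads.

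**Figure D3:**
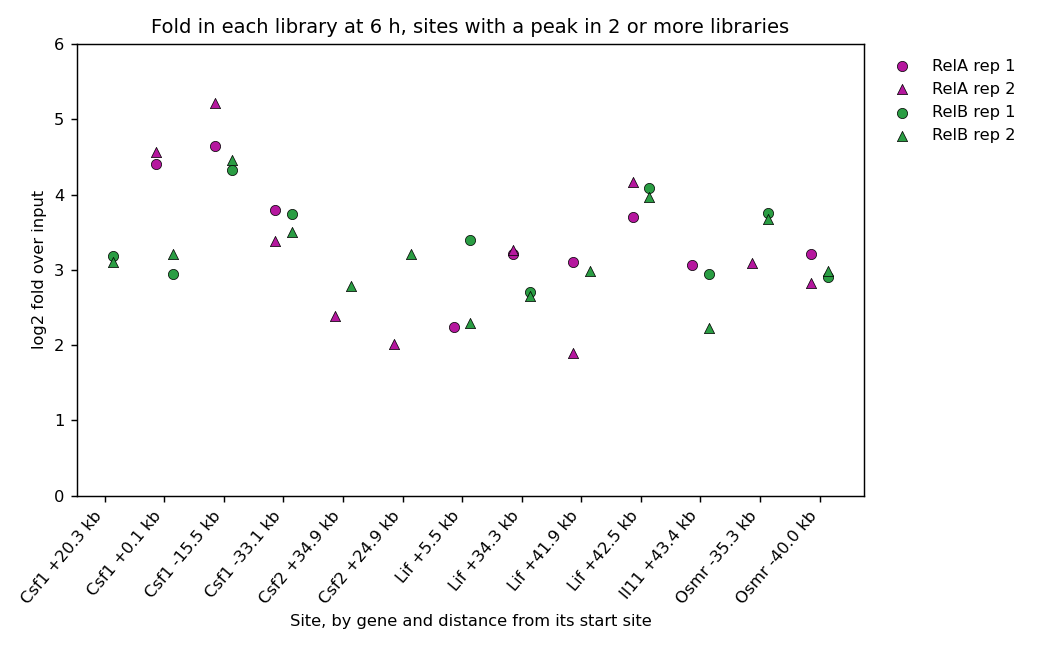
Log2 fold over input in each library at 6 h (RelA magenta, RelB green, circle replicate 1, triangle replicate 2) at the 13 sites with a peak in at least 2 libraries, named by gene and distance from its start site. A missing point is a library without a peak there. RelA stands apart from RelB at the *Csf1* start, where RelA is at 4.40 and 4.57 and RelB at 2.94 and 3.21.

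*Lif*, at chr11:4157560-4172517 on the plus strand, encodes leukaemia inhibitory factor. Its strongest site was 42458 bp downstream of the start, at 4199867 to 4200169, beyond the end of the gene. The RelA folds were 3.70 and 4.17, from 46 ChIP reads each, and the RelB folds were 4.09 and 3.97, from 83 and 73. The RelB values lay between the RelA values, and the difference was -0.01 (95% interval -0.64 to 0.62, limma adjusted p = 0.989). In the fullest window RelA had 20 and 28 reads and RelB had 34 and 44, not adjusted for depth. On log2 reads of that window the difference was -0.71 and did not pass the test (limma, adjusted p = 0.0639). The mean fold ranked 218 among 1860 sites. The 4 peaks shared 173 bp, which include the match GGGAAGTCCC.

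The second *Lif* site called in all 4 libraries, 34292 bp downstream at 4191673 to 4192031, was weaker. RelA had 3.21 and 3.27 and RelB had 2.70 and 2.65, with 17 to 21 ChIP reads per library. Both RelA values were above both RelB values, but the difference of 0.65 (95% interval 0.06 to 1.23) did not pass the test after adjustment (limma, adjusted p = 0.257). The 4 peaks share no single position and were joined through the longer peak of RelB replicate 1, whereas at 73.6% of the sites called in all 4 libraries the peaks do share a position. Within 100 bp of its centre lie 2 separate κB matches.

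Inside *Lif*, 5507 bp past the start, the intronic site 4162941 to 4163193 was called in RelA replicate 1 (2.24, 21 reads) and in both RelB libraries (3.39 and 2.29, 26 and 18 reads). RelA replicate 2 had no peak there. This is the site with the palindrome shared with *Csf1*. A site 41892 bp downstream, 4199302 to 4199602, had RelA folds of 3.10 and 1.89 and a fold of 2.98 in RelB replicate 2, with 11 to 14 reads. The remaining 3 *Lif* sites were called in a single library each. *Osm*, which encodes oncostatin M, starts upstream of *Lif* on the same chromosome, and the 3 *Lif* sites closest to the *Lif* start are within 50 kb of the *Osm* start too.

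*Osmr* occupies chr15:6763577-6824313 on the minus strand, and no other protein-coding gene starts within 50 kb of its start site. Both of its sites were upstream. At 39951 bp, 6863861 to 6864668, all 4 libraries had a peak. The RelA folds were 3.21 and 2.83 and the RelB folds 2.91 and 2.98. The difference was 0.16 (95% interval -0.44 to 0.76, limma adjusted p = 0.808), and each of the 4 libraries had 18 reads in its fullest window. The peaks of RelA replicate 1 and RelB replicate 1 did not touch and were joined through the others.

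The other *Osmr* site, 35264 bp upstream at 6859201 to 6859953, was the strongest of the sites called in 3 libraries near these genes. RelB had 3.75 and 3.67 with 60 and 64 reads, RelA replicate 2 had 3.09 with 32 reads, and RelA replicate 1 had no peak. The peaks of RelA replicate 2 and RelB replicate 1 did not touch and were joined through that of RelB replicate 2. A library without a peak has no value in the lists, so this site could not enter the test.

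**Figure D4:**
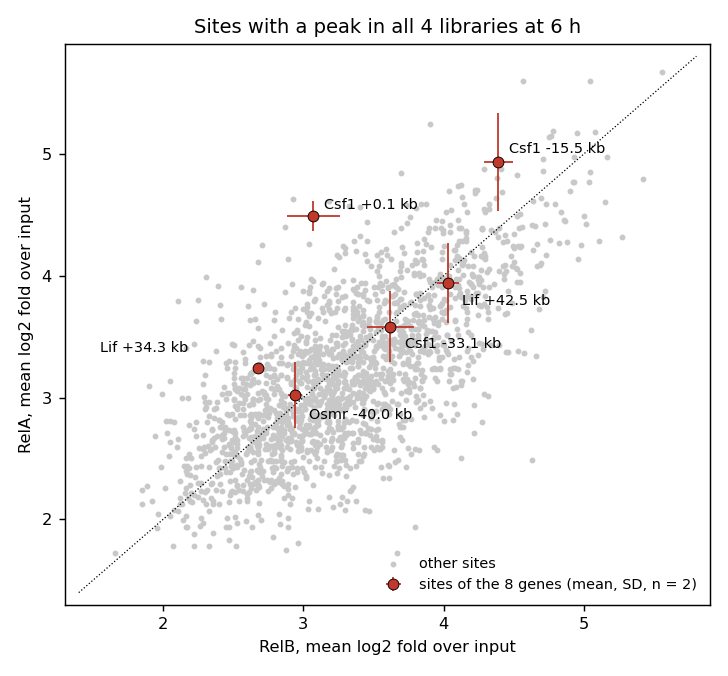
Mean log2 fold over input of RelA (vertical) against RelB (horizontal) at the 1860 sites called in every library at 6 h, with the 6 sites of these genes in red (mean and SD of 2 libraries) and equal values on the dotted line. The *Csf1* start site lies above the line at 4.49 against 3.07, and the *Osmr* site, the *Csf1* site 33.1 kb upstream and the *Lif* site 42.5 kb downstream lie close to it.

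Over the 6 sites called in all 4 libraries the median of the mean log2 fold was 3.69, beside 3.19 over all 1860 sites, and 4 of the 6 were above that median. The median size of the centred difference between antibodies was 0.39, beside 0.31 over all sites. Both RelA values exceeded both RelB values at 3 of the 6, beside 19.2% of all 1860 sites. The reverse, seen at 29.5% of all 1860, was found at none. These orders use folds before centring, where the median difference of RelA minus RelB over all 1860 sites was -0.09. With 6 sites these figures describe the list and are not tested.

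**Figure D5:**
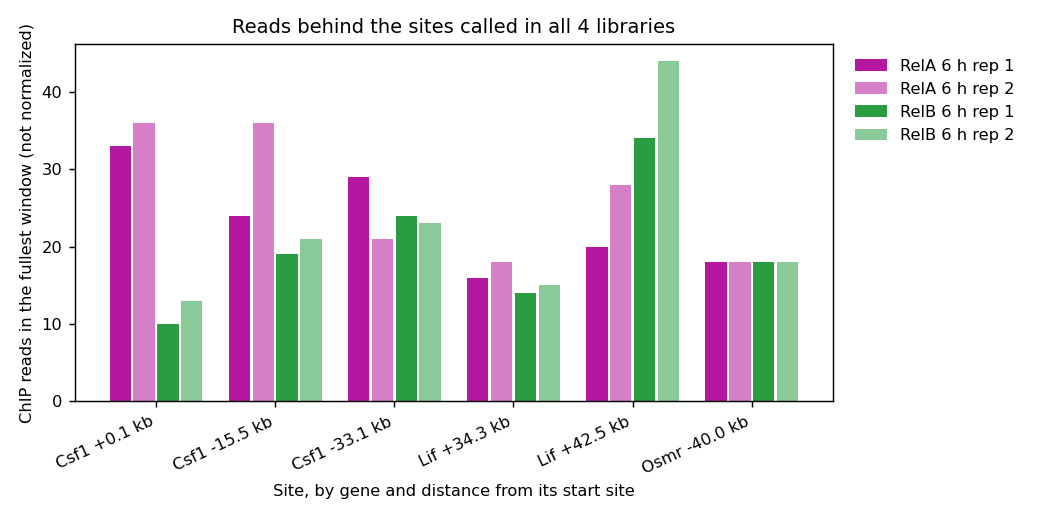
ChIP reads in the fullest window of the peak, not normalized, in each of the 4 libraries at 6 h (RelA magenta, RelB green, replicate 2 paler) at the 6 sites called in all 4. The bars at the *Csf1* start fall from 33 and 36 for RelA to 10 and 13 for RelB, and at *Osmr* all 4 bars stand at 18. At *Lif* 42.5 kb downstream they rise from 20 and 28 for RelA to 34 and 44 for RelB.

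*Il6*, *Il11* and *Csf2* had binding that was not called in every library. *Il6*, the prototype of the family, occupies chr5:30339701-30346508 on the plus strand. Its single peak, in RelB replicate 2, was 15439 bp upstream at 30324063 to 30324461, with a log2 fold of 2.88, 22 ChIP reads (exact Poisson 95% interval 13.8 to 33.3), 8 input reads and an FDR of 1.52e-04. The other 3 libraries called nothing within 50 kb. The *Il6* promoter, shown for this reason, holds a κB match 87 bp upstream of the start site, where no library had a peak.
Il6 promoter, chr5:30339574-30339654: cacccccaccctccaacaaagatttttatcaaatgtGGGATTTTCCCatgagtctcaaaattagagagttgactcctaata
From 250 bp before to 50 bp after the start site, a match was found at 3 of the 8 genes, *Csf1*, *Il6* and *Lif*, and at 27.9% of protein-coding genes. Of these 3 promoters, the one of *Csf1* had peaks beside the match. The *Lif* promoter, with its match 163 bp upstream of the start site, had none closer than the intronic site 5.5 kb away.

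*Il11* encodes interleukin-11 and occupies chr7:4724669-4734460 on the minus strand. Its one site, 43433 bp downstream of the start at 4690896 to 4691158, had log2 folds of 3.07 in RelA replicate 1 (40 reads) and of 2.94 and 2.23 in the RelB libraries (11 reads each). RelA replicate 2 had no peak. The RelB peaks did not touch each other and were joined through the longer peak of RelA replicate 1. This was the single site of the 29 whose nearest protein-coding start site was another gene's, *Suv420h2*, 690 bp away. *Il11* has 7 further protein-coding start sites within 50 kb.

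*Csf2* occupies chr11:54060773-54063169 on the minus strand. Peaks were called in the replicate 2 libraries of both antibodies and in neither replicate 1 library. A site 34882 bp downstream of the start, 54028260 to 54028314, had log2 folds of 2.39 for RelA and 2.78 for RelB, with 18 and 16 reads. The site 24883 bp downstream, 54038090 to 54038483, had 2.01 and 3.21, with 12 and 21 reads. Another peak, 2554 bp upstream, was called in RelB replicate 2 with a fold of 1.86 and 12 reads.

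*Csf3* (chr11:98562577-98564943) and *Clcf1* (chr19:4214238-4223490), both on the plus strand, had no peak within 50 kb in any of the 8 libraries. *Clcf1* encodes a cytokine that binds the ciliary neurotrophic factor receptor. The peak closest to *Csf3* was 61.5 kb away, in RelB replicate 2, with a log2 fold of 1.97 and 11 reads. The closest to *Clcf1* was 78.2 kb upstream, at a site called in all 4 libraries from 4135736 to 4136033. A gene without a peak had no signal past the callers' threshold, which is not the same as no binding.

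The κB consensus was matched within 100 bp of the centre at 16 of the 29 sites (55.2%), beside 44.3% of all 14781 sites and 12.1% of windows 1000 bp to either side. Over the genome the share rose with the number of libraries that called a site. A match was found at 5 of the 6 sites called in all 4 libraries, beside 73.9% of such sites in the genome. It was found at 3 of the 7 called in 2 or 3 libraries (58.9% and 66.8% over the genome) and at 8 of the 16 called in one (33.7%). A match describes the letters and does not show which factor binds.

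The same families were followed to 36 other ligands, receptors and signalling genes of these pathways. At 6 h, 11 of the 36 had a site called in all 4 libraries within 50 kb (9.83% of protein-coding genes do). A peak of some kind was found at 25 (43.5% of protein-coding genes have one), and 11 had no peak. Among 11 ligands, 7 had such a site, among 14 receptors 1, and among 11 signalling genes 3. These counts are not independent, since *Ctf1* and *Ctf2*, 2 of the 7 ligands, named after their values were seen, are counted through the same site, 134851618 to 134852200 on chromosome 7 in an intron of *Bcl7c*, as are 2 of the 3 signalling genes, *Stat5a* and *Stat5b*, through another. The receptor was *Il6st*, the gp130 gene itself, named here after its values were seen, where a site 10.6 kb upstream had RelA folds of 3.70 and 2.33 and RelB folds of 2.86 and 2.88. Of the 14 receptors, 6 had a peak at 6 h, beside 43.5% of protein-coding genes, so lacking one does not set the receptors apart. *Csf2rb*, *Csf3r*, *Il6ra* and *Lifr* were among the 8 of 14 with no peak.

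The strongest site of the list was in an intron of *Il34*, which encodes the second ligand of the M-CSF receptor, 11.2 kb downstream of its start. The RelA folds were 4.0 and 4.17 and the RelB folds 4.91 and 4.46. The difference did not pass the test (limma, adjusted p = 0.396). *Il34* had 5 sites called in all 4 libraries, and it was the only gene of the 36 with a peak at 0 h, in RelB replicate 2, at 113318599 to 113318823 on chromosome 8, with a log2 fold of 2.96 and 15 reads. This peak overlaps the site at 6 h. *Tyk2*, a Janus kinase, followed, with RelA at 4.30 and 4.20 and RelB at 4.26 and 3.93 at a site 8.8 kb upstream.

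At the other genes of the list with such sites, the strongest often lay in or beside a neighbouring gene. For *Il27* it was in an intron of *Eif3c*, 557 bp from that gene's start, with RelA at 2.36 and 3.06 and RelB at 4.12 and 4.30, a difference of -1.42 that did not pass the test (limma, adjusted p = 0.0638). For *Il5* it was in an intron of *Irf1*, 357 bp from its start, with RelA at 3.36 and 3.17 and RelB at 3.12 and 2.65. For *Cntf* it was upstream of *Zfp91*, with 3.15, 2.01, 3.94 and 3.65 in the order RelA then RelB. For *Osm* it was in an intron of *Tbc1d10a*, with 3.93, 3.36, 2.94 and 2.98 in that order. *Stat5a* and *Stat5b*, which encode transcription factors downstream of the GM-CSF receptor, shared one site in a *Stat5a* intron, with RelA at 2.57 and 2.62 and RelB at 3.18 and 3.79. None of the differences at these named sites passed the test, with adjusted p (limma) of at least 0.0638.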

How the data were processed

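ChIP-seq peak lists of 8 libraries were used, 2 per antibody and time. The authors removed adapters with cutadapt and bases under Q20, mapped reads to mm9 (Bowtie) keeping those with a unique position, and ran cisGenome on each library in windows of 200 bases (FDR under 0.1, fold above 2, at least 4 reads) against input combined from both replicates. The input sample is labelled NfkB2-/- Input, with no time given. The deposited FDR is a q-value. The deposited log2 fold is the highest of any window, over scaled input. A window with few input reads has a fold set largely by its ChIP reads. The deposited counts are ChIP and input reads per peak and in the fullest window, not normalized. The lists are cut at the callers' threshold, so an absent peak is no measured zero.

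Start sites are the 5' ends of genes in the first mouse GENCODE release on the same build, without mitochondrial genes. Peaks at 6 h sharing at least 1 bp were merged. Sites called in every library at 6 h were tested with limma 3.58.1 in R 4.3.3 (lmFit, eBayes, libraries centred on their medians, Benjamini-Hochberg threshold 0.05). The κB consensus was searched on both strands. The genes, lists and tests were chosen with earlier results of these data known. Named were all 8 genes, every site near them in at least 2 libraries, single-library sites by count or by position where a gene has no other, and up to 8 genes of the related list by the mean fold of their strongest site. Other single-library peaks named beside these sites were chosen after their values were seen. Merging and limma were tested on simulated data. Alternatives covered thresholds, distance, joining, normalization, the replicate block, the motif window and leaving out libraries. Python 3.11.15 with pandas 2.3.3, numpy 2.4.6 and pysam 0.24.0 was used. Depth is unknown beyond reads in peaks.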

Additional observations from a re-analysis of the deposited data

How the results depend on the processing

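No called result changed direction. With peaks at an FDR under 0.01, 38 peaks in place of 58 lay near the 8 genes and 7 in place of 11 related genes had a site in all 4 libraries. Within 20 kb there were 21 peaks, 2 sites in all 4 libraries, 1 gene with such a site and 7 related genes. Within 100 kb there were 102 peaks and 11 such sites. The 100 kb distance gave no 0 h peak near these genes either, and the stricter FDR and the 20 kb distance could not have added one. A window of 50 bp to either side left 9 sites with a κB match in place of 16. The limma count over all sites was 11, and it became 141 with log2 reads of the fullest window (67 higher for RelA, 74 for RelB) and 30 at an FDR under 0.01. It ran from 0 to 40 when libraries were left out, where an arm with 1 library is assumed to vary like the other, and it was 0 without RelB replicate 1 (193 sites at an unadjusted p under 0.05, limma) and 0 without RelB replicate 2 (203 sites). Under a block for replicate number, 85 sites passed in limma, 41 higher for RelA and 44 for RelB. The replicate numbers gave no sign of pairing libraries (r = -0.00256 between deviations of same-numbered libraries across sites). Of the 6 sites near these genes, the *Csf1* start was the one called, and in 5 of its 8 alternatives it stayed so. The other 5 passed the test in none of their 9, though the difference at the *Lif* site 42.5 kb downstream ran from -0.71 to 0.25. The lists hold no peak of under 10 reads, so sites with 11 or 12 reads lie at their lower limit.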
